A study of Mus musculus with 24 samples.

Results

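mir-320 (mmu-mir-320) is a mouse microRNA precursor, and its row is 1 of the 1187 precursors counted in small RNA libraries of BV2 cells and of the extracellular vesicles (EVs) they released. The row was picked by name because it was high after lipopolysaccharide in both compartments, so its LPS values are described and not tested. BV2 is an immortalised mouse microglial line. The cultures were controls, or had received for 72 h LPS (lipopolysaccharide, a component of the bacterial outer membrane that activates microglia) at 100 ng/mL, IL-10 (interleukin-10, a cytokine that dampens inflammation) at 50 ng/mL, or TGF-β (a cytokine that maintains the microglial phenotype) at 50 ng/mL. Cells and EVs with each of these treatments make 8 groups of 3 libraries, all from the same line. Whether libraries of a group stem from different cultures is not stated, and the p-values therefore measure only a spread between libraries that may be technical.

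Most microRNAs are cut from a long transcript by the nuclear enzyme Drosha, exported by exportin-5 and cut again by Dicer. The mir-320 hairpin is known to take another route. It starts at a transcription start site, keeps the cap of a nascent RNA polymerase II transcript, leaves the nucleus through exportin-1 without Drosha, and is then cut by Dicer, with the 3′ arm as the main mature product. In the RefSeq gene list of GRCm38.p6 Mir320 overlaps no other gene and lies between Polr3d, which encodes a subunit of RNA polymerase III, and Bmp1, which encodes a procollagen protease. The counts are per precursor and do not separate the arms.

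mir-484 is the other well-known capped hairpin of this kind, and further precursors are made by other non-canonical routes. mir-877, mir-702 and mir-1224 are mirtrons, short introns that splicing releases in place of Drosha. mir-664 and mir-1839 lie in small nucleolar RNAs, mir-1983 derives from a transfer RNA, and mir-451a is cut by Ago2 in place of Dicer. The mature sequences of those that the comparisons below turn on are shown here because they show that no seed is shared between the 5 precursors printed, among which mir-320 itself is not. They are from RefSeq (GRCm38.p6), 5′ to 3′, with the seed (bases 2 to 8, which pair with targets) in capitals.
miR-484: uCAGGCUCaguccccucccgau
miR-877-5p: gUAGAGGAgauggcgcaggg
miR-877-3p: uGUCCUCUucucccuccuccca
miR-702-5p: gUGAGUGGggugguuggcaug
miR-702-3p: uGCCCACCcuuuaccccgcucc
miR-664-5p: cUGGCUGGggaaaaugacugg
miR-664-3p: uAUUCAUUuacuccccagccua
miR-1983: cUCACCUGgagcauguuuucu

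The depth was 185400 to 409969 counts in the cells and 15071 to 28727 in the EVs. The LPS cell libraries were the shallowest of the cells, at 185400 to 233757, and the LPS EV libraries the deepest of the EVs, at 23943 to 28727. The myeloid precursors mir-223, mir-142a and mir-511 were present in all cell groups, at 2654 to 4348 CPM in sum (CPM is a count scaled by the total of its library). In the EVs only 1 of these 3 had any count, at 299 to 2938 CPM. Precursors of neurons summed to at most 42.8 CPM in cells and 4915 in a single EV library, those of muscle to at most 16.2 and 1512, and those of red cells to at most 5.72 and 1411. The part of such RNA in the EV values was not tested. mir-6236, an annotated precursor that overlaps ribosomal RNA, took 49.9% to 79.5% of each EV library and at most 1.63% of a cell library, and mir-6240, of the same kind, 3.26% to 9.94% and at most 0.528%.

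In control cells mir-320 had 73, 75 and 71 counts, which is 252, 183 and 246 CPM. After LPS it had 234, 311 and 328 counts, or 1001, 1677 and 1589 CPM. Each LPS library thus held more counts than any control library although it was shallower, and the groups did not overlap on either scale. On the scale used for the comparisons, CPM after TMM scaling (normalised CPM), the level was 197 ± 19.7 in controls and 1650 ± 404 after LPS (SD, n = 3 each). The difference was 3.07 ± 0.18 on the log2 scale (edgeR estimate ± SE), an 8.39-fold higher level, against a median of 0.09 over the 259 precursors tested. Of those, 20.8% were called higher, where called means an edgeR adjusted p under 0.05, and mir-320 had the 7th highest estimate. LPS library 1 was the lowest of its group, at 1196 normalised CPM against 1971 and 1783 in the others. In a bulk library, more cells with a precursor and more of it per cell cannot be told apart.

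After IL-10 mir-320 had 48, 53 and 61 counts in cells, which is 136, 156 and 174 CPM. These 3 values lay below the 3 control values in CPM, but in normalised CPM the groups touched, at 131 to 176 after IL-10 and 175 to 214 in controls. The log2 difference was -0.31 ± 0.21 with a 95% interval of -0.75 to 0.12, and mir-320 was not called (edgeR adjusted p = 0.374), as against 7.72% of the 259 precursors that were. After TGF-β the counts were 53, 73 and 59, or 187, 226 and 188 CPM, and the normalised level of 196 ± 34.4 (SD, n = 3) overlapped that of the controls. This difference was -0.00268 ± 0.21 with an interval of -0.43 to 0.43 (edgeR adjusted p = 0.99), where 6.56% of precursors were called. The controls are the same 3 libraries in both comparisons and in the one that chose mir-320.

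IL-10 and TGF-β were also compared with each other, and these group means use no library of the LPS comparison. The scaling and the estimate of spread behind the SE and p still come from all cell libraries. mir-320 was lower after IL-10 by a log2 of -0.31 ± 0.21, with an interval of -0.76 to 0.13, and this was not called (edgeR adjusted p = 0.417; 14.7% of precursors were). In cells the order of the normalised levels was therefore LPS, then control at 197 and TGF-β at 196, then IL-10 at 158 ± 23.8 (SD, n = 3). The last 3 do not differ beyond their spread. Set against the cytokines, the LPS level was 3.38 ± 0.19 above IL-10 and 3.07 ± 0.19 above TGF-β on the log2 scale.

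**Figure D1:**
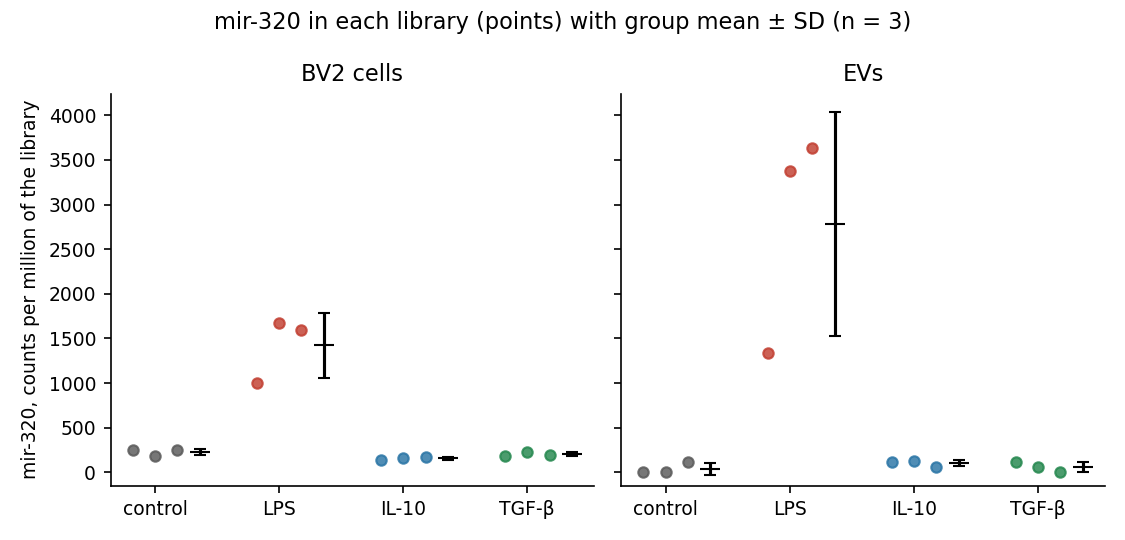
mir-320 in CPM of each library (vertical axis, linear) for BV2 cells and EVs, by treatment. Points are libraries and bars the group mean ± SD (n = 3); the LPS libraries reach 1001 to 1677 in cells and 1337 to 3634 in EVs, and every other library lies at or below 252.

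In EVs the same precursor was near the limit of detection outside the LPS group. The control EV libraries had 0, 0 and 2 counts, the IL-10 libraries 2, 2 and 1, and the TGF-β libraries 2, 1 and 0. A count of 0 in the first and the second control library allows up to 189 and 187 CPM, by a limit of 3 counts. The LPS EV libraries had 32, 97 and 94 counts, or 1337, 3377 and 3634 CPM, so that all 3 lay far above every other EV library. These shares have exact (Clopper-Pearson) 95% intervals of 914 to 1886, 2739 to 4118 and 2938 to 4445 CPM. LPS EV library 1 was again the lowest of its group, beyond counting error, and it held 65.5% mir-6236 against 56.2% and 49.9% in the other 2. Such intervals and limits cover counting error only, because PCR duplicates count as separate reads.

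Summed over libraries, mir-320 took 223 of 78537 LPS EV counts and 2 of 49943 control EV counts, a 70.9-fold ratio of shares (exact binomial counting interval 19.4 to 589). With mir-6236 and mir-6240 taken out of the totals the ratio was 31.9 (8.73 to 265). The 2 control counts were in a single library, and without it the share after LPS was at least 30.2-fold higher, set against 3 counts over the other 2 control libraries. Against IL-10 EVs the ratio was 27.7 (11.7 to 86.0), and 13.7 (5.80 to 42.7) without both precursors. Against TGF-β EVs it was 45.1 (15.2 to 220), and 22.1 (7.48 to 108) without them. The edgeR folds, on the normalised scale, were 30.1 against control EVs, 11.6 against IL-10 EVs and 15.9 against TGF-β EVs. On normalised CPM the LPS EVs stood at 1439 ± 494 (SD, n = 3). In EVs 4.23% of 71 precursors were called higher after LPS, and mir-320 had the highest estimate of the 71. Its place among the 71 rests on the LPS libraries, the only EV group in which it reached 10 counts.

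No difference between the other EV groups was detectable at this depth. mir-320 passed the filter of the EV fit only through the LPS libraries, which also chose it. The adjusted p-values of mir-320 here therefore decide nothing, and the counts are the description. IL-10 EVs held 5 counts and control EVs 2, a ratio of 2.56 with a counting interval of 0.42 to 26.9 (edgeR adjusted p = 0.875). Among the 71 precursors edgeR and DESeq2 each called 0 in this comparison, and 5 had an unadjusted edgeR p under 0.05. TGF-β EVs held 3 counts, so that both groups were at or below the floor of 3 counts and no fold is given (edgeR adjusted p = 0.868, where 4.23% were called). IL-10 EVs against TGF-β EVs gave a ratio of 1.63 (0.32 to 10.5) and an edgeR adjusted p of 0.897, with 0 precursors called by edgeR and by DESeq2 and 3 at an unadjusted edgeR p under 0.05.

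EVs were compared with the cells of the same treatment in a joint fit over all 24 libraries. In this fit mir-320 is compared by its TMM-scaled level and not by its part of the RNA. After LPS it was higher in EVs by a log2 of 2.20 ± 0.35, a 4.60-fold difference given here as a description with no p, since the levels of both groups chose mir-320; in the same contrast 30.7% of 280 precursors were called in either direction and 21.1% as higher. On the normalised scale of this fit the LPS EV libraries stood at 1892, 5913 and 3187 and the LPS cell libraries at 488, 1124 and 771, with no overlap. As shares of all counts the groups overlapped, since EV library 1 at 1337 CPM lay below 2 of the 3 cell libraries. The ratio of summed shares was 2.03 (counting interval 1.75 to 2.36, which leaves out the spread between libraries). Scaled by library totals the log2 difference was 0.98, and without LPS EV library 2 it was 1.54.

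Without LPS the direction depended on the scaling. The control levels of both compartments also entered the choice of mir-320, as its baseline. The p-values for controls below are therefore not independent of that choice. In controls mir-320 stood at a log2 of -0.33 in EVs against cells (edgeR adjusted p = 0.841; 38.6% of precursors were called in either direction), but at -2.48 when scaled by library totals (edgeR adjusted p = 0.017) and at 0.48 with DESeq2's size factors. In IL-10 libraries it stood at 1.46 (edgeR adjusted p = 0.207; 43.2% called) and with library totals at -0.60. In TGF-β libraries it stood at 0.84 (edgeR adjusted p = 0.582; 43.2% called) and with library totals at -1.66. Behind these values lie 2, 5 and 3 EV counts, against 219, 162 and 185 in the cells. The ratios of summed shares, EVs over cells, were 0.18 (0.022 to 0.66), 0.66 (0.21 to 1.57) and 0.31 (0.064 to 0.93) for controls, IL-10 and TGF-β. In brackets are counting intervals, which leave out the spread between libraries and test no difference between groups. With mir-6236 and mir-6240 taken out of the totals they were 1.02, 3.38 and 1.62. The scalings move all precursors with mir-320: for controls the median over the 280 was -0.54 with TMM, 0.28 with DESeq2's size factors and -2.68 with library totals, and for LPS it was 0.00, 0.31 and -1.14.

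**Figure D2:**
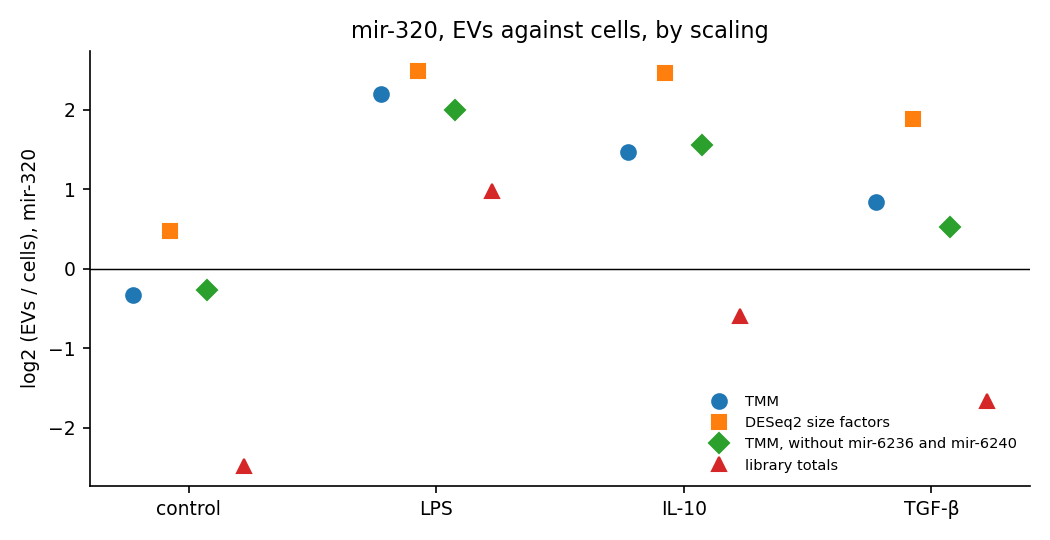
Log2 ratio of mir-320 in EVs to cells (vertical axis) for each treatment under 4 scalings. After LPS all 4 values are above 0, from 0.98 to 2.49, while the other treatments lie on both sides of 0.

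The effect of a cytokine in EVs was then set against its effect in cells. Both effects use the control libraries, which also entered the choice of mir-320. The log2 difference of effects was 1.79 for IL-10 with an interval of -1.21 to 4.80 (edgeR adjusted p = 0.685), and 1.17 for TGF-β with an interval of -2.20 to 4.55 (edgeR adjusted p = 0.862). Both values rest on few counts: without control EV library 3, which leaves the control EVs at 0, the fitted values were 9.15 and 8.14 and are no bounds, and without TGF-β EV library 1 the TGF-β value was 0.034. Over the 280 precursors edgeR called 0 in either, with 36 and 30 at an unadjusted p under 0.05, and DESeq2 called 8 and 12. For LPS the difference is described only. It was 2.53 ± 1.07 on the log2 scale (edgeR estimate ± SE), the 44th highest of the 280 precursors, whose median was 0.38. The ratio of summed shares to control was 6.30 in cells (counting interval 5.43 to 7.34) and 70.9 in EVs, and without mir-6236 and mir-6240 in the totals 6.36 and 31.9.

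mir-320 was next set beside the other 8 precursors of the list of non-canonical routes, whose LPS values the choice of mir-320 did not use. The list itself was drawn up with earlier results of these data known. Of these, 6 had enough counts to be tested in cells: 2 were higher after LPS and 1 lower, against 20.8% and 11.2% of all precursors. The list's median log2 change was 0.06 and that of all precursors 0.09. These counts are near what the shares over all precursors give for 6.

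mir-484, which shares the capped, Drosha-independent route, had 105, 122 and 75 counts in control cells and 39, 27 and 29 after LPS. In normalised CPM it went from 266 ± 34.7 to 176 ± 21.2 (SD, n = 3 each), with no overlap between the groups. The log2 difference was -0.60 ± 0.23 and just missed the threshold (edgeR adjusted p = 0.0534). It passed with DESeq2's size factors (-0.67, edgeR adjusted p = 0.0297) and with library totals (-1.01, edgeR adjusted p = 0.00456), where the median over all 259 precursors was -0.32. It passed too with no filter on low counts (-0.79, edgeR adjusted p = 0.00356), without mir-6236 and mir-6240 (-0.70, edgeR adjusted p = 0.0335) and with DESeq2's Wald test (-0.67, DESeq2 adjusted p = 0.0403). It also passed without control library 3 (-0.72, edgeR adjusted p = 0.0352) or LPS library 1 (-0.73, edgeR adjusted p = 0.0486), but not without any of the other 4 libraries in turn (-0.55 to -0.71, edgeR adjusted p = 0.0575 to 0.125). In the 12 EV libraries mir-484 had 0 to 3 counts, also after LPS (1, 3 and 0), and it was too low for the EV fit.

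The mirtron mir-702 fell from 49.4 ± 6.23 to 16.6 ± 4.67 normalised CPM in cells (SD, n = 3 each; log2 -1.55 ± 0.53, edgeR adjusted p = 0.029), on 56 control and 9 LPS counts. This call was lost without control library 2, control library 3, LPS library 1 or LPS library 2, with an edgeR adjusted p of 0.0506 to 0.0791. The mirtron mir-877 stood at -0.16 ± 0.15 (edgeR adjusted p = 0.432), and with library totals at -0.57 (edgeR adjusted p = 0.00369). With library totals the median over all 259 precursors was itself -0.32, against 0.09 with TMM. mir-1224 and mir-451a had too few counts to be tested, with mir-451a at 0 in every cell library.

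mir-1983, from a transfer RNA, rose from 64.4 ± 14.6 to 274 ± 35.4 normalised CPM in cells (SD, n = 3 each; log2 2.08 ± 0.24, edgeR adjusted p = 2.45e-07). mir-664, from a small nucleolar RNA, rose by 0.92 ± 0.16 (edgeR adjusted p = 9.58e-05), from 146, 252 and 172 counts to 163, 164 and 182 in the shallower LPS libraries. mir-1839, of the same class, stood at 0.28 ± 0.18 (edgeR adjusted p = 0.252) and at -0.12 with library totals, where the median over all precursors was -0.32. After IL-10 and after TGF-β 0 of the 6 were called in cells by edgeR, where 7.72% and 6.56% of all precursors were. The lowest unadjusted p among these 12 values was that of mir-877 after IL-10 (0.0443, edgeR adjusted p = 0.181). Between the cytokines mir-877 was the only one of the 6 called, higher after IL-10 by 0.55 (edgeR adjusted p = 0.00663; 8.11% of all precursors were called higher), and without TGF-β library 3 by 0.48 (edgeR adjusted p = 0.0541).

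Against the cytokines instead of the control, LPS cells had 3 of the 6 higher and 1 lower compared with IL-10 (20.5% and 23.9% of all precursors), and 2 higher and 1 lower compared with TGF-β (18.1% and 13.9%). These contrasts share the LPS libraries with the one above. mir-664 and mir-1983 were higher in both, by 1.09 and 1.83 against IL-10 and by 1.20 and 1.96 against TGF-β (edgeR adjusted p at most 1.30e-05). mir-1839 was higher (0.53, edgeR adjusted p = 0.0251) and mir-877 lower (-0.44, edgeR adjusted p = 0.0215) than after IL-10, and mir-484 was lower than after TGF-β (-0.69, edgeR adjusted p = 0.0258). Each of these last 3 calls was lost in 3 of 6 fits that left out 1 library: mir-1839 without LPS library 2 or IL-10 library 1 or 3, mir-877 without LPS library 1 or 3 or IL-10 library 2, and mir-484 without LPS library 2 or 3 or TGF-β library 2 (edgeR adjusted p = 0.0620 to 0.102). With library totals mir-1839 was at 0.34 (edgeR adjusted p = 0.110).

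**Figure D3:**
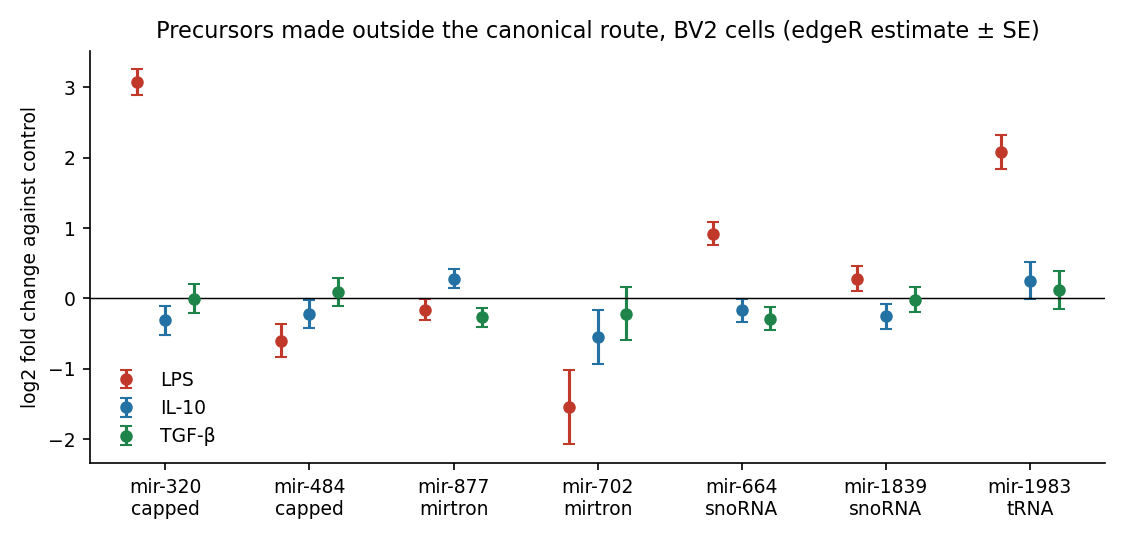
Log2 change against control in BV2 cells (vertical axis, edgeR estimate ± SE) for mir-320 and the 6 other non-canonical precursors tested, after LPS, IL-10 and TGF-β. After LPS mir-320 lies at 3.07 and mir-1983 at 2.08, while mir-484 lies at -0.60 and mir-702 at -1.55.

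In EVs 4 precursors of the list passed the filter, and 0 of them were called after LPS by edgeR, where 18.3% of the 71 were called in either direction. mir-664 came nearest, with 10, 16 and 76 counts in control EVs and 398, 590 and 385 after LPS (log2 2.17 ± 0.82, edgeR adjusted p = 0.0944, unadjusted 0.0202). It passed with no filter (2.52, edgeR adjusted p = 0.0105), without mir-6236 and mir-6240 (2.55, edgeR adjusted p = 0.0454), with DESeq2's Wald test (2.40, DESeq2 adjusted p = 0.0225) and without control EV library 3 (3.18, edgeR adjusted p = 0.0331). It was called higher in LPS EVs than in IL-10 EVs (3.58 ± 0.89, edgeR adjusted p = 0.0133; 5.63% of precursors were called higher) and than in TGF-β EVs (3.51 ± 0.89, edgeR adjusted p = 0.00978; 8.45%). The first of these was lost without LPS EV library 2 or IL-10 EV library 2 (edgeR adjusted p = 0.0540 and 0.0576), and the second ranged from 2.99 to 5.24 without each library in turn. In EVs against cells mir-664, mir-1983 and mir-877 were higher in each of the 4 treatments, 3 of the 5 tested each time, where 26.1%, 21.1%, 27.5% and 25.4% of all precursors were called higher in controls, LPS, IL-10 and TGF-β. For controls the log2 differences were 3.89 ± 0.61, 5.48 ± 0.73 and 2.72 ± 0.69 (edgeR adjusted p = 1.03e-05, 1.04e-06 and 0.00254). Single EV libraries weighed heavily on several of these calls. Without control EV library 2 mir-877 stood at -0.48 (edgeR adjusted p = 0.749), without IL-10 EV library 1 at 1.19 (0.415 by edgeR), and without any one TGF-β EV library at 1.51 to 2.00 (0.0952 to 0.251 by edgeR). mir-664 stood at 1.77 without IL-10 EV library 1 and at 0.25 without TGF-β EV library 2 (edgeR adjusted p = 0.174 and 0.879), and mir-1983 at 1.85 without LPS EV library 2 (edgeR adjusted p = 0.0669). Among values that stayed called, mir-664 in controls was at 2.09 without control EV library 3, which held 76 of its 102 control EV counts, and mir-1983 was at 2.90 without IL-10 EV library 1 and at 3.29 without TGF-β EV library 2. With library totals mir-877 was called in 0 of the 4 treatments by edgeR (log2 0.12 to 1.24), mir-664 was lost after IL-10 and TGF-β (0.85 and 0.61) and mir-1983 after LPS (1.18). The LPS effect itself differed between EVs and cells for 1 of the 5, mir-1983, by a log2 of -3.03 ± 0.86 (edgeR adjusted p = 0.0314), where 6.07% of all precursors were called. This was lost without any of the 3 control EV libraries in turn (edgeR adjusted p = 0.0598 to 0.0722). mir-484, with 0 to 4 EV counts a group, was not called in any treatment.

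The precursors whose levels followed mir-320 most closely over the 12 cell libraries were found by Pearson's r of log2(normalised CPM + 1) among the 258 others tested. They were mir-6240 (r = 0.986), mir-6236 (0.976), mir-146a (0.969), mir-146b (0.964) and mir-1983 (0.961), where the median over all 258 was 0.00. mir-146a and mir-146b are feedback inhibitors of NF-kB signalling. These values are a description, and they rest largely on the LPS libraries, which share their treatment and low depth. Over the 9 libraries without LPS r was 0.59 for mir-6240, 0.54 for mir-6236, 0.04 for mir-1983, -0.25 for mir-146b and -0.29 for mir-146a. In cells the normalised level went from 1160 in controls to 5525 after LPS for mir-6240 and from 6976 to 16957 for mir-6236. Without both precursors the mir-320 difference in cells was 2.97.

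**Figure D4:**
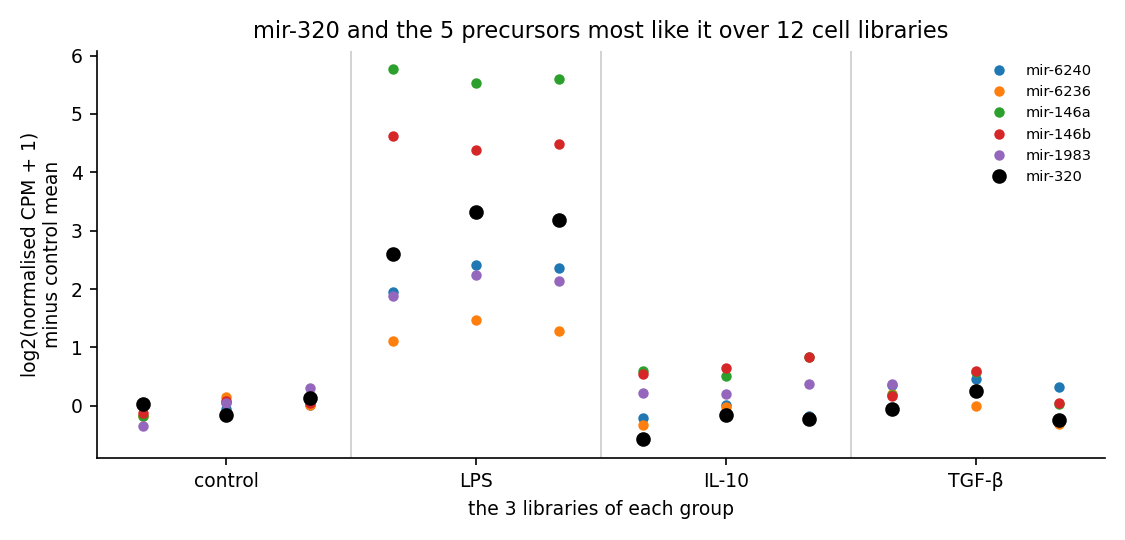
log2(normalised CPM + 1) minus the mean of the 3 control libraries (vertical axis) in each of the 12 cell libraries, for mir-320 (black) and the 5 precursors with the highest r. All 6 are raised in the 3 LPS libraries, and outside them r with mir-320 ranges from -0.29 to 0.59.

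Over the 12 EV libraries the closest precursors were others, with lower r among the 70 compared. They were mir-423 (r = 0.686), let-7a-2 (0.524), let-7f-2 (0.513), mir-2137 (0.51) and mir-664 (0.50), and the median was 0.00. Over the 9 EV libraries without LPS r was 0.648 for mir-423, 0.17 for let-7a-2, 0.05 for let-7f-2, -0.44 for mir-2137 and -0.01 for mir-664, on 0 to 2 counts of mir-320 a library. Over the 12 cell libraries, those with LPS included, mir-423, mir-2137 and mir-664 had r = 0.753, 0.891 and 0.901 with mir-320. There let-7a-2 and let-7f-2 had r = -0.30 and -0.33. mir-6240 and mir-6236 ran against mir-320 over the EV libraries (-0.58 and -0.52).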

How the data were processed

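Small RNA was sequenced from BV2 cells and EVs, 24 libraries in 8 groups. Per the labels' protocols, miRNeasy kits were used for extraction, the elution volume was 40 µL (cells) or 20 µL (EVs), and SMARTer smRNA-seq libraries were amplified over 18 PCR cycles. The deposited values are raw counts per precursor, judged from the values. The submitters' processing notes name DESeq2. The aligner, annotation, genome build and any filter: not given in the sources used here. There were 8 tables, of which 2 duplicated others byte for byte, leaving 6. Control columns were identical between tables and used once. Columns name a group, not a sample title. Each of the 24 replicate pairs differed by more than counting noise (chi-square over its degrees of freedom above 2).

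Comparisons used edgeR 4.0.16 in R 4.3.3 on all precursors, with TMM factors, filterByExpr (minimum count 10) and the two-sided quasi-likelihood test, in a fit per compartment (8 residual degrees of freedom) or over all libraries (16). Benjamini-Hochberg adjustment was over all precursors tested. mir-320 was tested in 11 comparisons and described in 8, those in which its LPS level enters. SE come from the F statistic. The procedure was run on simulated counts with a fixed spread not taken from these libraries, so it was not tested at the spread of the EVs. Alternatives were DESeq2's size factors, library totals, no filter, a mean of at least 50 counts, mir-6236 and mir-6240 left out, a robust prior, the Wald test of DESeq2 1.42.0, only the groups compared, and each library left out in turn. The replicate block and the alternatives for other precursors were added after seeing the data. mir-320 and the lists were chosen with earlier results of these data known. Named precursors were the list of 9 non-canonical precursors, the 5 with the highest r with mir-320 in each compartment, and mir-6236 and mir-6240. Marker lists for oligodendrocytes (at most 55.4 CPM in cells and 1701 in EVs), epithelium (59.9 and 139) and liver (10.8 and 0) were also summed. Sequences were found in the RefSeq table for 13 of the 17 named precursors looked up.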

Additional observations from a re-analysis of the deposited data

Results flagged for a closer look

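mir-1983 stood out because its response to LPS differed between the compartments. It rose by a log2 of 2.08 in cells. In EVs it stood at -1.46 ± 0.98 and was not called (edgeR adjusted p = 0.360), on 37 control and 42 LPS counts. The difference of the 2 effects in the joint fit was -3.03 ± 0.86 (edgeR adjusted p = 0.0314, with 17 of 280 precursors called in that test). It was no longer called with library totals (-2.14, edgeR adjusted p = 0.106) or without any of the 3 control EV libraries in turn (edgeR adjusted p = 0.0598, 0.0709 and 0.0722).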

How the results depend on the processing

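The higher level of mir-320 in EVs than in cells after LPS is a description, and its log2 value ranged from 0.98 to 2.49 under the 9 other settings and from 1.54 to 2.72 without each library in turn. For EVs against cells in controls, the log2 value was 0.48 with DESeq2's size factors, 0.55 with a mean of at least 50 counts, 0.48 with DESeq2's Wald test and -2.48 with library totals, and without each library in turn -8.11 to 0.080, the lowest without control EV library 3, where the EV group is at 0 and the fitted value is no bound. For IL-10 it was -0.60 with library totals and 2.48 with DESeq2's Wald test, which called it (DESeq2 adjusted p = 0.00175). For TGF-β it was -1.66 with library totals, -0.14 with no filter, and -0.90 to 1.22 without each library in turn. TGF-β against control gave -0.17 to 0.028 in cells and -0.13 to 4.17 in EVs without each library in turn, and IL-10 against TGF-β in EVs -0.16 to 1.47, none of these called (edgeR adjusted p of 0.534 at the lowest). With library totals the LPS value in cells moved to 2.66 and LPS against IL-10 in EVs to 4.68, and mir-1839 after LPS in cells turned to -0.12. mir-877 in control EVs against cells ranged from -0.48 to 3.05 without each library in turn, the lowest without EV library 2. The causes were not tested. mir-320 was not called under any setting run when IL-10, TGF-β and control cells were compared. In EVs mir-320 could not be fitted with a mean of at least 50 counts, nor with only the groups compared where LPS was absent. Within a compartment, numbers 1 to 3 in the column names showed no pairing across treatments (r of same-numbered deviations -0.21 to 0.32 in cells and -0.29 to 0.28 in EVs). Whether same-numbered cell and EV libraries pair was not tested, and the joint fit treats them as independent. A replicate block on the numbers changed no call of mir-320. With it the log2 value of EVs against cells after LPS was 2.18. Depth limits the EV groups without LPS, where 0 to 2 counts a library leave even large differences undetected.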
